A study of Mus musculus with 12 samples.

Results

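The genes described here encode inhibitory receptors of T cells and genes that accompany them: Pdcd1, Ctla4, Lag3, Havcr2, Tigit, Btla, Cd160, Tox, Layn and Entpd1. They were chosen by symbol, and all 10 were found among the 47069 genes of the deposited tables. Each had enough reads to enter the test across genes, for which 15925 genes qualified.

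The RNA came from melanomas that grew from B16 F1 cells, a pigmented line of C57BL/6 origin, in the brains of C57BL/6 mice. Every mouse received 100000 cells in the brain, and the brain tumor was collected at day 9. The 12 libraries form 4 groups of 3, which the series describes as biological triplicates. Mice carried the intracranial tumor alone or an intracranial and an extracranial tumor, and were given IgG control antibody or anti-PD-1 together with anti-CTLA-4, called therapy below. The groups are therefore intracranial-only IgG, intracranial-only therapy, both-tumor IgG and both-tumor therapy, and what all of them share is the intracranial tumor. The model is 1 transplanted line, and the libraries are bulk tissue, in which tumor cells, infiltrating leukocytes and brain cells are measured together. The labels give no batch and no replicate number, so replicates 1 to 3 are names only.

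T cells carry receptors that restrain them after activation. PD-1, the product of Pdcd1, recruits phosphatases that dampen antigen receptor and CD28 signalling when it meets PD-L1 or PD-L2, and CTLA-4 competes with CD28 for the ligands CD80 and CD86. LAG-3, TIM-3 (Havcr2), TIGIT, BTLA and CD160 are further receptors of this kind, and TOX is a nuclear factor needed for the exhausted state that T cells enter under lasting antigen exposure. Antibodies that block PD-1 and CTLA-4 release this restraint and are used against melanoma, including its metastases in the brain. Several of these genes are not restricted to T cells: Havcr2 and Entpd1 are also known from macrophages and microglia, Btla from B cells, Cd160 and Tigit from natural killer cells, and Tox from the developing brain.

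Total counts ran from 18427495 to 22294182 reads per library. T cell markers were scarce in a part of the libraries. Cd3e, a chain of the T cell receptor complex, had 0, 63 and 0 reads in intracranial-only IgG replicates 1 to 3, 1, 1 and 45 in intracranial-only therapy, 50, 5 and 47 in both-tumor IgG, and 145, 281 and 360 in both-tumor therapy. Of the 12 libraries, 3 stood apart from their groups: intracranial-only IgG replicate 2 and intracranial-only therapy replicate 3 had far more Cd3e reads than their replicates, and both-tumor IgG replicate 2 had far fewer. The sample name of the last one carries a suffix that the other names lack, which the labels do not explain. Summed over 17 T cell identity genes, the level was 4.81 to 41.9 FPKM in intracranial-only IgG, 4.45 to 18.8 in intracranial-only therapy, 4.12 to 33.6 in both-tumor IgG and 83.3 to 156 in both-tumor therapy. FPKM, as computed by the authors, scales the reads of a gene to its length and to the total of the library. In bulk tissue, fewer T cells and less RNA per T cell cannot be told apart, and this holds for every receptor below.

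The label of these genes as T cell receptors was checked against the 4 libraries with at most 1 Cd3e read. Entpd1 still had 64 to 108 reads there, Havcr2 27 to 43, Layn 11 to 32 and Lag3 5 to 34, and each was read in 4 of 4 of these libraries. Btla had 3 to 9 reads and Pdcd1 1 to 3. Ctla4 had a single read in 1 of the 4, Tigit had 0 to 4 reads, Cd160 0 to 4 and Tox 0 to 16. Reads of Entpd1, Havcr2, Layn and Lag3 were thus present where almost none of Cd3e was, whereas Ctla4, Tigit, Cd160 and Pdcd1 had at most 4 reads in each of these libraries.

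Promoters of the antibody targets and of 2 further receptors are shown as examples with and without the motif described next. The sequences are RefSeq promoters of GRCm38.p6, from 250 bases before to 50 bases after the gene's start, and a promoter was found for 8 of the 10 genes (10 promoters). Capitals mark GGAAA or its reverse complement TTTCC, the core bound by NFAT, the calcium-dependent factor of T cell activation. The Pdcd1 promoter (chr1:94052504-94052803, minus strand) has matches at -28 and -23, the Ctla4 promoter (chr1:60908775-60909074, plus strand) at -144, and the Tigit promoter (chr16:43664135-43664434, minus strand) at -110 and -13. The Btla promoter (chr16:45224087-45224386, plus strand) has none. Of the promoters not printed, that of Layn, 1 of Entpd1 and 1 of Cd160 hold it as well. The other Entpd1 promoter, the other Cd160 promoter and that of Havcr2 do not.
Pdcd1: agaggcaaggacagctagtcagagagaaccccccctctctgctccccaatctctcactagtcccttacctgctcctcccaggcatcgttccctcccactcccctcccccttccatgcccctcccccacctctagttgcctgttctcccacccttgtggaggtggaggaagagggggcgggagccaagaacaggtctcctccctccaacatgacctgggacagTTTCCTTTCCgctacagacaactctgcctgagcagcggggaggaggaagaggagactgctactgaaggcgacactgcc
Ctla4: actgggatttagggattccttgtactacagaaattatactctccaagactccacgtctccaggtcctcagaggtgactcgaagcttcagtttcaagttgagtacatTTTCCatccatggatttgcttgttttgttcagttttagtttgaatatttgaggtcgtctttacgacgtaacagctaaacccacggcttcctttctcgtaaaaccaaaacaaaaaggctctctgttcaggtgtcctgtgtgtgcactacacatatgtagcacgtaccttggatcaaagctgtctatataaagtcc
Tigit: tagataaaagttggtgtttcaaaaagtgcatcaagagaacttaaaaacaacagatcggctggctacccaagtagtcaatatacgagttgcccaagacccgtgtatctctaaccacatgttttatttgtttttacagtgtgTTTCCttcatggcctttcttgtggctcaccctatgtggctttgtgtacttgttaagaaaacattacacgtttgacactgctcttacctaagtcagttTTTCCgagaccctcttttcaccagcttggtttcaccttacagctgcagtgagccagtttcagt
Btla: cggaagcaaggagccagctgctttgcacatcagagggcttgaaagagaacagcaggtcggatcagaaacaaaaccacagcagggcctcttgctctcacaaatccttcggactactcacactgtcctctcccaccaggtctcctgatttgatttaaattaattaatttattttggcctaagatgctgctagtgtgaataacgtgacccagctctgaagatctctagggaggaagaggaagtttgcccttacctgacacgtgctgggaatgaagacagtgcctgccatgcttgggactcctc
On both strands, GGAAA was found in 6 of the 10 promoters of these genes and in 61.3% of all 32851 RefSeq promoters of this length. TGANTCA, the AP-1 element, was found in 1 of 10 (Havcr2, at -200) against 7.81% of all. The STAT element TTCNNNGAA was found in 1 of 10 (at -234 in the Cd160 promoter that also holds GGAAA) against 8.3%. A match in these windows is a description of the letters and not a binding site.

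Pdcd1 (ENSMUSG00000026285, GRCm38 chromosome 1 from 94038305 to 94052553), the gene of the receptor blocked by anti-PD-1, had 1, 51 and 3 reads in intracranial-only IgG, 2, 3 and 26 in intracranial-only therapy, 32, 4 and 67 in both-tumor IgG, and 106, 385 and 413 in both-tumor therapy. The 3 both-tumor therapy libraries were the highest of the 12. The same libraries that were high or low in Cd3e were high or low in Pdcd1. In FPKM the group means were 0.496 ± 0.764, 0.247 ± 0.309, 0.900 ± 0.852 and 7.50 ± 4.25 (SD, n = 3 each, in the same order of groups).

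Ctla4 (ENSMUSG00000026011, chromosome 1 from 60887000 to 60915832), the gene of the other antibody target, had 0, 26 and 0 reads, then 0, 1 and 9, then 18, 0 and 29, and 63, 145 and 106 in the same order of groups. It had at most 1 read in 5 libraries. Both-tumor therapy again did not overlap with any other group, at 4.69 ± 2.02 FPKM (SD, n = 3) against 0.733 ± 0.698 in both-tumor IgG.

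**Figure D1:**
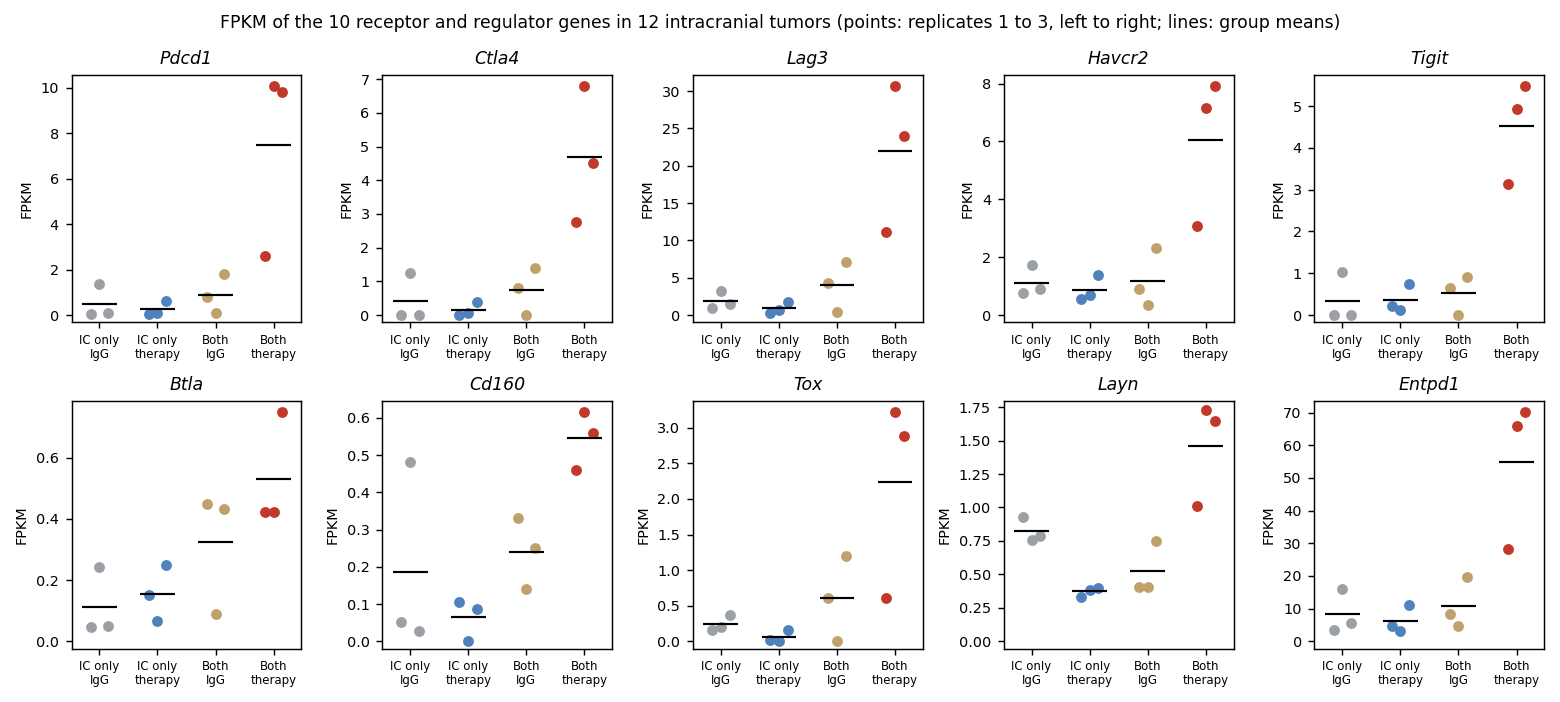
FPKM of the 10 genes in 4 groups of 3 libraries (1 point per library, replicates 1 to 3 from left to right, lines at group means, linear axes that differ between panels; IC, intracranial). Both-tumor therapy (red) had the highest mean for each gene, and its libraries overlapped with both-tumor IgG for Btla and Tox.

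Among the other inhibitory surface receptors, Lag3 (ENSMUSG00000030124, chromosome 6 from 124904361 to 124911705), whose product binds MHC class II, had 22, 74 and 34 reads in intracranial-only IgG, 5, 16 and 47 in intracranial-only therapy, 108, 11 and 168 in both-tumor IgG, and 285, 737 and 634 in both-tumor therapy. Havcr2 (ENSMUSG00000020399, chromosome 11 from 46454935 to 46481255), which encodes TIM-3, had 38, 87 and 43, then 27, 34 and 81, then 49, 19 and 118, and 170, 371 and 454. Tigit (ENSMUSG00000071552, chromosome 16 from 43648867 to 43664146), a receptor for poliovirus receptor family ligands, had 0, 19 and 0, then 4, 2 and 16, then 13, 0 and 17, and 64, 94 and 115. For all 3 genes both-tumor therapy lay above every other library, and the next 3 group means were not separated, since their libraries overlapped.

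Btla (ENSMUSG00000052013, chromosome 16 from 45224315 to 45257670) and Cd160 (ENSMUSG00000038304, chromosome 3 from 96798763 to 96829351) share the ligand HVEM, the product of Tnfrsf14. Btla had 3, 15 and 3 reads in intracranial-only IgG, 9, 4 and 18 in intracranial-only therapy, 30, 6 and 27 in both-tumor IgG, and 29, 27 and 53 in both-tumor therapy. Cd160 had 2, 19 and 1, then 4, 0 and 4, then 14, 6 and 10, and 20, 25 and 25. The Btla libraries of the 2 both-tumor groups overlapped, with means of 0.532 ± 0.189 FPKM under therapy and 0.323 ± 0.202 under IgG (SD, n = 3 each). Exons of Cd160 share 68 bases with Pdzk1 on the other strand, and no source used here gives the strand setting of the counting.

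Tox (ENSMUSG00000041272, chromosome 4 from 6686353 to 6991557) had 7, 9 and 16 reads in intracranial-only IgG, 1, 0 and 8 in intracranial-only therapy, 29, 0 and 54 in both-tumor IgG, and 30, 148 and 146 in both-tumor therapy. It had 7 and 16 reads in intracranial-only IgG replicates 1 and 3, where Pdcd1 had 1 and 3 and Ctla4 had 0 in both. These libraries had 0 Cd3e reads and a summed level of 12 neuron markers of 216 and 290 FPKM. In intracranial-only therapy replicates 1 and 2, with 1 Cd3e read each, the neuron markers stood at 55.7 and 58.5 FPKM and Tox had 1 and 0 reads. The part of brain cells in the Tox reads was not tested, and 260 exonic bases of Tox overlap an antisense gene, Gm11802.

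Layn (ENSMUSG00000060594, chromosome 9 from 51054640 to 51077094), which encodes the hyaluronan receptor layilin and is known from exhausted and regulatory T cells in tumors, had 32, 26 and 26 reads in intracranial-only IgG, 11, 13 and 16 in intracranial-only therapy, 15, 15 and 26 in both-tumor IgG, and 38, 61 and 64 in both-tumor therapy. It did not follow Cd3e: intracranial-only IgG replicate 2, with 63 Cd3e reads, had 26 reads of Layn, and replicate 1, with none, had 32. The means of Layn were 1.46 ± 0.394, 0.827 ± 0.0924, 0.522 ± 0.200 and 0.373 ± 0.0355 FPKM (SD, n = 3 each) for both-tumor therapy, intracranial-only IgG, both-tumor IgG and intracranial-only therapy. No neighbouring groups in this order overlapped in FPKM, but below both-tumor therapy the gaps were narrow. The lowest intracranial-only IgG library was at 0.759 FPKM and the highest both-tumor IgG library at 0.753, with 26 reads in each. The lowest both-tumor IgG library was at 0.407 (15 reads) and the highest intracranial-only therapy library at 0.402 (16 reads).

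Entpd1 (ENSMUSG00000048120, chromosome 19 from 40612366 to 40741602) encodes CD39, an enzyme that degrades extracellular ATP and marks exhausted T cells as well as myeloid and endothelial cells. It had 73, 323 and 108 reads in intracranial-only IgG, 94, 64 and 260 in intracranial-only therapy, 180, 103 and 406 in both-tumor IgG, and 633, 1382 and 1621 in both-tumor therapy. It was the most abundant of the 10 in every library, with 47.0% to 75.5% of their summed FPKM. The gene length behind the deposited FPKM is 1059 bases for Entpd1, while its annotated exons cover 5580 bases in GENCODE M21. With exonic lengths its share was 19.7% to 42.9%, and the largest share was that of Entpd1 in 5 of the 12 libraries, of Lag3 in 5 and of Havcr2 in 2.

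**Figure D2:**
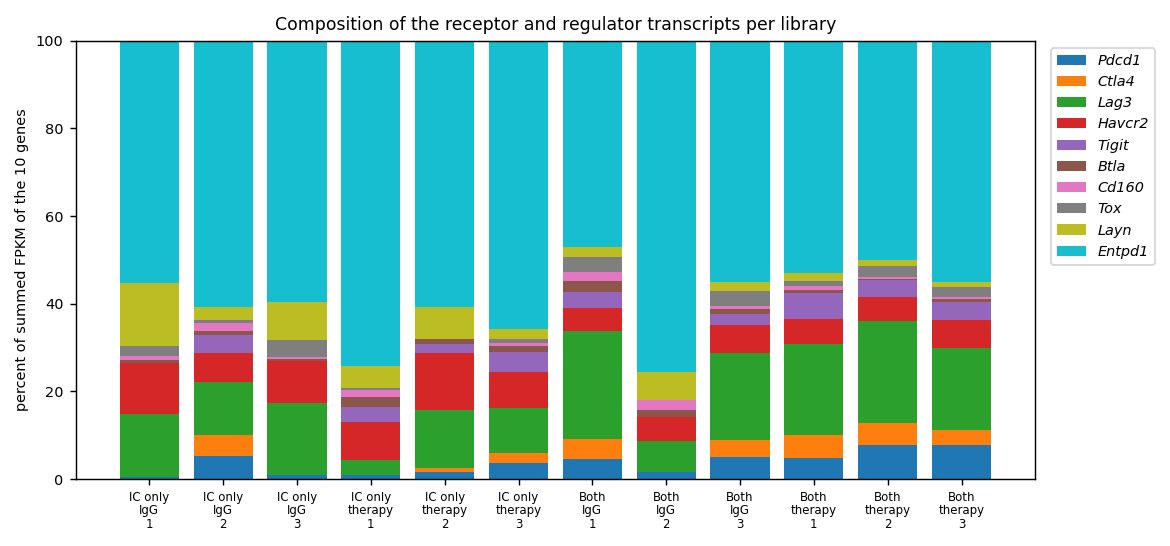
Share of each gene in the summed FPKM of the 10 genes (percent, vertical axis) in each of the 12 libraries (bars; IC, intracranial). Entpd1 took 47.0% to 75.5% in every library, Pdcd1 between 0.415% and 7.68%, and Layn between 1.29% and 14.3%.

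The make-up of this set differed between libraries. Pdcd1 took 4.86%, 7.66% and 7.68% of the summed FPKM in both-tumor therapy and 4.59%, 1.61% and 4.98% in both-tumor IgG. With exonic lengths these shares were 11%, 17.2% and 17.6% with therapy and 10.1%, 4.82% and 11.9% with IgG. In the intracranial-only groups the FPKM share was between 0.415% and 5.27%, and the highest of these values came from IgG replicate 2. Layn took 14.3% in intracranial-only IgG replicate 1, the library with the lowest summed T cell level of its group, and 1.29% to 1.88% in both-tumor therapy (24.7% and 2.18% to 3.16% with exonic lengths).

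The effect of therapy in mice with both tumors was tested first, with edgeR's quasi-likelihood test and Benjamini-Hochberg adjustment over all genes tested. Layn rose by 1.47 ± 0.33 (log2 fold change ± SE, adjusted p = 0.0498). It was the one gene called of the 10, where 1.24% of all genes were called higher and 5.39% in either direction. The others had fitted values above 0 without passing: 3.08 ± 1.30 for Pdcd1 (adjusted p = 0.130), 2.69 ± 1.41 for Ctla4 (adjusted p = 0.201), 3.11 ± 1.28 for Tigit (adjusted p = 0.122), 2.48 ± 0.89 for Lag3 (adjusted p = 0.0914), 2.36 ± 0.66 for Havcr2 (adjusted p = 0.0544) and 2.34 ± 0.70 for Entpd1 (adjusted p = 0.0616). Tox was at 1.92 ± 1.13, Cd160 at 1.15 ± 0.85 and Btla at 0.72 ± 0.69 (0.29 without both-tumor IgG replicate 2). The therapy libraries lay above the IgG libraries without overlap for 8 of the 10 genes, all but Btla and Tox, as they did for 17.9% of all genes. The median of the 10 was 2.35 on the log2 scale and that of all genes 0.02. Cd3e itself was at 2.89 ± 1.60 (adjusted p = 0.220).

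The call on Layn was narrow. It was lost with RLE size factors, without the filter on low counts, in a fit of the 2 groups alone (adjusted p = 0.0553, 0.0621 and 0.146), and without any of 9 of the 12 libraries (adjusted p = 0.0624 to 0.187). It was kept without replicate 2 of intracranial-only IgG, replicate 3 of both-tumor IgG or replicate 1 of both-tumor therapy (adjusted p = 0.0486, 0.0340 and 0.0270). Other methods called more of the 10: Entpd1, Havcr2, Lag3 and Layn passed in DESeq2, which called 8.95% of the genes it gave an adjusted p higher, and these with Tigit in limma-voom, which called 4.09% higher.

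**Figure D3:**
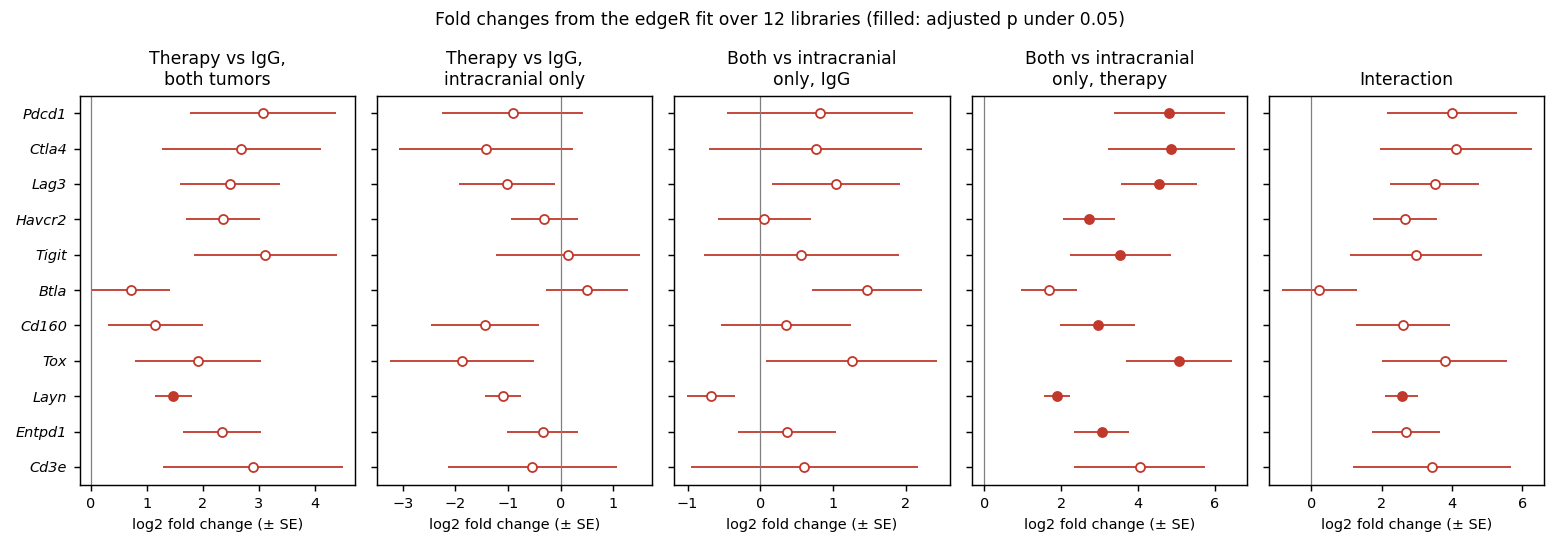
Log2 fold changes (horizontal axes, which differ between panels) with their standard errors for the 10 genes and Cd3e in the 5 comparisons, from edgeR's quasi-likelihood fit over 12 libraries; filled points had an adjusted p under 0.05. Filled points are Layn in therapy against IgG with both tumors and in the interaction, and 9 of the 10 genes in both tumors against intracranial only under therapy.

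In mice with the intracranial tumor alone, 0 of the 10 genes passed for therapy against IgG, and 0% of all genes did. At an unadjusted p under 0.05, 1 of the 10 genes (Layn) and 13.5% of all genes passed, and DESeq2 called 1038 genes, none of them among the 10. Limma-voom and both FPKM fits called none of the 10 either. Fitted values were -0.91 ± 1.34 for Pdcd1, -1.42 ± 1.66 for Ctla4, -1.02 ± 0.91 for Lag3, -0.31 ± 0.64 for Havcr2, 0.14 ± 1.37 for Tigit and 0.50 ± 0.78 for Btla. These values rested on 1 library of each group: without IgG replicate 2, Pdcd1 was at 2.18, Ctla4 at 4.78, Tigit at 5.89, Btla at 1.67, Lag3 at -0.41, Havcr2 at 0.14 and Entpd1 at 0.52. Without therapy replicate 3 they were at -2.78, -3.80, -1.0, -0.05, -1.99, -0.82 and -1.04, in the same order. Layn, at -1.10 ± 0.34 (adjusted p = 0.163), and Tox, at -1.88 ± 1.38 (adjusted p = 0.617), were lower with therapy without overlap between the libraries, as were 14.4% of all genes. Layn was between -1.16 and -0.99 whichever library was left out. All 12 neuron markers were lower without overlap in the same comparison. So were 8 of 10 oligodendrocyte, 9 of 11 microglia and 4 of 10 endothelial genes. Of the T cell identity genes 1 of 17 was, and of the melanocyte genes 0 of 10. The part of these cells in the values of Layn and Tox was not tested.

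The extracranial tumor was compared next. Under IgG, 0 of the 10 genes passed edgeR's test, as did 0% of all genes, and 0 of the 10 were at an unadjusted p under 0.05 (1.18% of all genes were); DESeq2, limma-voom and the FPKM fits called none. Btla had the highest fitted value, 1.47 ± 0.76, with 30, 6 and 27 reads against 3, 15 and 3. Layn, at -0.67 ± 0.33, was lower without overlap, as were 2.78% of all genes, but the nearest libraries of the 2 groups had 26 Layn reads each. The others ranged from 0.06 for Havcr2 to 1.26 for Tox. Single libraries set these values. Without intracranial-only IgG replicate 2, 5 of the 10 and 453 of all 16317 genes tested were at an unadjusted p under 0.05. In that fit Ctla4 was at 6.95, Tigit at 6.31, Pdcd1 at 3.91, Btla at 2.64, Cd160 at 2.53 and Havcr2 at 0.50. Without both-tumor IgG replicate 3, Ctla4 was at -0.05, Tigit at -0.07, Pdcd1 at -0.13, Havcr2 at -0.82 and Tox at 0.31. Without both-tumor IgG replicate 2, 2 of the 10 and 771 of all 16367 genes tested were at an unadjusted p under 0.05.

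Under therapy, both tumors against intracranial only gave calls for 9 of the 10 genes, where 24.4% of all genes were called higher. Tox rose by 5.05 ± 1.38 (adjusted p = 0.0139), Ctla4 by 4.87 ± 1.64 (adjusted p = 0.0334), Pdcd1 by 4.81 ± 1.44 (adjusted p = 0.0204) and Lag3 by 4.54 ± 0.99 (adjusted p = 0.00578). Tigit rose by 3.54 ± 1.31 (adjusted p = 0.0481), Entpd1 by 3.05 ± 0.72 (adjusted p = 0.00774), Cd160 by 2.95 ± 0.98 (adjusted p = 0.0310), Havcr2 by 2.72 ± 0.67 (adjusted p = 0.00901) and Layn by 1.89 ± 0.34 (adjusted p = 0.00455). Btla was at 1.70 ± 0.73 (adjusted p = 0.0789), and Cd3e at 4.04 ± 1.70 (adjusted p = 0.0742). The libraries did not overlap for 10 of the 10 genes, against 31.4% of all genes. The median was 3.29 for the 10 genes and 0.03 for all.

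Entpd1, Havcr2, Lag3 and Layn passed without any single library and in every other fit run. Tox was lost in limma-voom (adjusted p = 0.0624) and without intracranial-only therapy replicate 1 (adjusted p = 0.0508), and Pdcd1 without intracranial-only therapy replicates 1 or 2 or both-tumor therapy replicate 2 (adjusted p = 0.0670, 0.0707 and 0.0537). Ctla4 was lost in DESeq2 (adjusted p = 0.0576) and without 1 of 4 therapy libraries, namely intracranial-only replicates 1 or 2 and both-tumor replicates 2 or 3 (adjusted p = 0.0641 to 0.103). Cd160 was lost without any of 5 therapy libraries, all but both-tumor replicate 1 (adjusted p = 0.0545 to 0.0853), and Tigit without 8 of the 12 (adjusted p = 0.0563 to 0.138), the 3 intracranial-only IgG libraries and both-tumor IgG replicate 2 being the exceptions. This comparison and the preceding ones share libraries, so they are not independent.

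The difference between the 2 therapy effects, the interaction, was called for Layn alone (2.57 ± 0.48, adjusted p = 0.0321), where 12.1% of all genes were called higher. Havcr2 was at 2.67 ± 0.91 (adjusted p = 0.0578), Entpd1 at 2.68 ± 0.97 (adjusted p = 0.0673) and Lag3 at 3.50 ± 1.26 (adjusted p = 0.0675). Pdcd1 was at 3.99 ± 1.85 (adjusted p = 0.136), Ctla4 at 4.10 ± 2.17 (adjusted p = 0.182) and Btla at 0.22 ± 1.07 (adjusted p = 0.892). With replicate 2 of intracranial-only IgG left out, Pdcd1 was at 0.90, Ctla4 at -2.10 and Btla at -0.95, and without intracranial-only therapy replicate 3 at 5.84, 6.47 and 0.76. The call on Layn was lost without any of 8 libraries (adjusted p = 0.0526 to 0.0669), and kept without intracranial-only IgG replicate 1, both-tumor IgG replicates 2 or 3, or both-tumor therapy replicate 1 (adjusted p = 0.0419, 0.0167, 0.0237 and 0.0198).

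Reads were then set against those of Cd3e within each library. Of the exonic bases of Cd3e, 135 overlap an antisense gene, Gm48719, so the denominator of every ratio carries the same limit as Cd160 and Tox. Per read of Cd3e, Pdcd1 had 0.731, 1.37 and 1.15 reads in both-tumor therapy and 0.640, 0.800 and 1.43 in both-tumor IgG. In the 2 intracranial-only libraries with more than 1 Cd3e read it had 0.810 (IgG replicate 2, 95% Clopper-Pearson interval 0.548 to 1.19) and 0.578 (therapy replicate 3, 0.342 to 0.957). The intervals cover counting error only. These values overlapped between therapy and IgG, with a difference in mean log2 ratio of 0.21 (two-sided exact permutation p = 0.8, n = 3 per group).

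Ctla4, Lag3, Havcr2, Tigit, Tox and Entpd1 overlapped between the both-tumor groups as well, with differences of 0.56, -0.27, -0.72, 0.80, -0.15 and -0.86 and exact permutation p-values of 0.3 to 0.9. In both-tumor therapy the ratios were close together for Entpd1 (4.37, 4.92 and 4.50) and Havcr2 (1.17, 1.32 and 1.26). In both-tumor IgG they were spread, at 3.60, 20.6 and 8.64 for Entpd1 and 0.980, 3.80 and 2.51 for Havcr2. Without IgG replicate 2 the differences were -0.27 for Entpd1 and -0.32 for Havcr2. The highest ratio of each came from that library, where Cd3e had 5 reads and the interval for Entpd1 ran from 8.55 to 64.8.

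Btla, Cd160 and Layn had fewer reads per Cd3e read with therapy. For Btla the ratios were 0.200, 0.0961 and 0.147 with therapy and 0.60, 1.2 and 0.574 with IgG. Those of Cd160 were 0.138, 0.0890 and 0.0694 against 0.280, 1.2 and 0.213, and those of Layn 0.262, 0.217 and 0.178 against 0.300, 3.0 and 0.553. The differences in mean log2 ratio were -2.38, -2.13 and -1.85 without overlap (two-sided exact permutation p = 0.1 each, the smallest that 3 against 3 allows). Without both-tumor IgG replicate 2 they were -2.05, -1.38 and -0.93. Of all other genes tested, 89.8% were lower relative to Cd3e without overlap in this comparison and 0.0314% higher, so lower ratios were the common case.

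**Figure D4:**
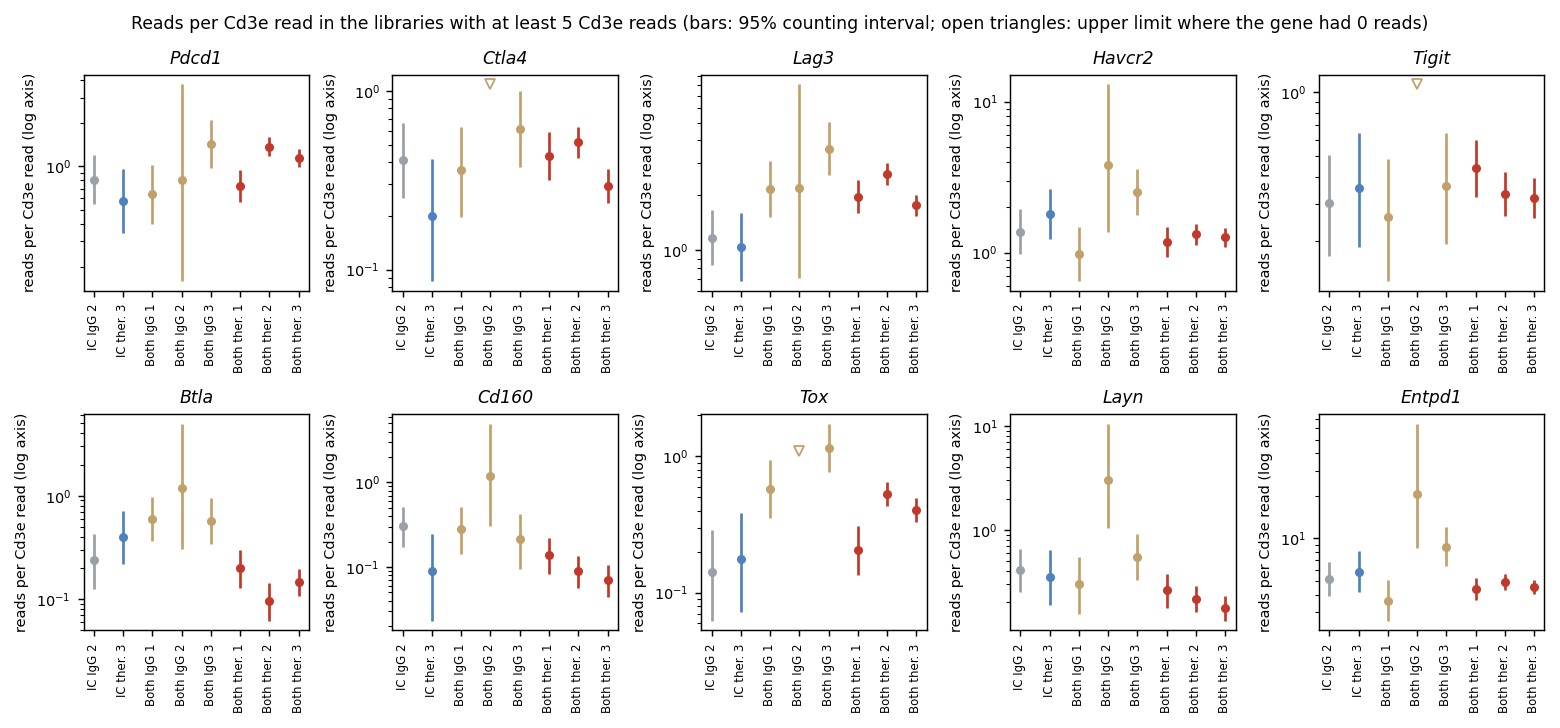
Reads per Cd3e read (log axes, which differ between panels) for the 10 genes in the 8 libraries with at least 5 Cd3e reads, with 95% Clopper-Pearson counting intervals; open triangles mark the upper limit where the gene had 0 reads (IC, intracranial; ther., therapy). Btla in both-tumor therapy (0.0961 to 0.200) lies below both-tumor IgG (0.574 to 1.2), whereas Pdcd1 overlaps between these groups.

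Over all libraries, with labels permuted within tumor state, therapy changed the ratio to Cd3e of 0 of the 10 genes at an exact permutation p of at most 0.05 (0.521% of all genes were lower by this test). The smallest value was 0.07, for Cd160. Without intracranial-only IgG replicate 2 the test was passed by 6 of the 10, but the share of all genes was not computed for that set of libraries. For the extracranial tumor, with labels permuted within treatment, 5 of the 10 passed, all lower with both tumors: Layn (exact permutation p = 0.03), Tigit (0.035), Havcr2, Btla and Entpd1 (0.045 each). This count was 0 without intracranial-only IgG replicate 1 or 3, 8 without replicate 2 of that group, 1 without both-tumor IgG replicate 1 or intracranial-only therapy replicate 1 or 2, and 2 to 3 without a both-tumor therapy library. Over all 12 libraries 86.1% of all genes were lower by the same test, and this share was not computed with a library left out. In 4 of the 6 intracranial-only libraries Cd3e had 0 or 1 reads, and the part of this low denominator in the count was not tested. Over 6 contrasts and 10 genes, 60 such tests were made, and the p-values are unadjusted.

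The ligands of these receptors differed in the size of their fitted values. Cd274, which encodes PD-L1, had 141, 1467 and 165 reads in intracranial-only IgG, 154, 176 and 1529 in intracranial-only therapy, 909, 174 and 959 in both-tumor IgG, and 1960, 7748 and 5572 in both-tumor therapy. The 3 libraries that stood apart in Cd3e stood apart in Cd274 in the same direction. With both tumors, therapy against IgG was at 2.87 ± 1.14 for Cd274 (adjusted p = 0.115), 3.51 ± 1.21 for the PD-L2 gene Pdcd1lg2 (adjusted p = 0.0852) and 2.24 ± 1.16 for Tnfrsf14 (adjusted p = 0.195). Cd86, a ligand of CTLA-4, was at 2.43 ± 1.13 (adjusted p = 0.159) and Cd80, its other ligand, at 1.04 ± 0.57 (adjusted p = 0.217). Under therapy, both tumors against intracranial only raised Pdcd1lg2 by 4.84 ± 1.33 (adjusted p = 0.0141) and Cd86 by 3.60 ± 1.2 (adjusted p = 0.0321). Cd274 was at 3.04 ± 1.15 (adjusted p = 0.0513).

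Ligands of TIGIT and several others had smaller fitted values. Pvr, a TIGIT ligand, averaged 25.8 ± 2.48, 26.4 ± 10.7, 19.0 ± 6.15 and 15.4 ± 3.02 FPKM (SD, n = 3) in intracranial-only IgG, intracranial-only therapy, both-tumor IgG and both-tumor therapy. Under therapy it was lower with both tumors, changing by -0.86 ± 0.31 (adjusted p = 0.0442). Nectin2, the TIM-3 ligand gene Ceacam1 and the LAG-3 ligand gene Fgl1 did not pass in any comparison, with therapy effects with both tumors of -0.19 ± 0.27, 0.05 ± 0.31 and -0.16 ± 0.36. Lgals9, another TIM-3 ligand, was at 0.68 ± 0.53 (adjusted p = 0.360). It had 1310, 4788 and 1126 reads in intracranial-only IgG, 1454, 1201 and 3260 in intracranial-only therapy, and 3066, 1489 and 2503 in both-tumor IgG. The libraries that stood apart in Cd274 thus stood apart in Lgals9 in the same direction. Of 13 tested checkpoint ligands, 0 were called higher and 1 lower for therapy with both tumors, Cd276 (-0.72 ± 0.16, adjusted p = 0.0498). Of all genes, 1.24% were called higher there and 5.39% in either direction. No gene had a smaller adjusted p in that comparison, and RLE factors, no filter or the 2 groups alone called 0 genes. The same limit holds for each call at 0.0498 below. Under therapy, both tumors against intracranial only called 3 higher, among them Cd200 (2.62 ± 0.55, adjusted p = 0.00522), and 3 lower (24.4% of all genes were called higher and 21% lower), with Hmgb1 at -1.16 ± 0.22 (adjusted p = 0.00458) and Cd276 at -0.77 ± 0.16 (adjusted p = 0.00483).

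Other genes of inhibition and costimulation were counted from lists chosen by function. Of 11 tested further inhibitory receptors, 1 passed for therapy with both tumors, where 1.24% of all genes were called higher. Adora2a, an adenosine receptor gene also known from striatal neurons, rose by 2.41 ± 0.42 (adjusted p = 0.0498). It had 31, 17 and 38 reads in both-tumor IgG and 175, 101 and 207 in both-tumor therapy. Under therapy, 9 of the 11 were called higher with both tumors (24.4% of all genes), with Cd101 at 5.17 ± 0.98 (adjusted p = 0.00457), Adora2a at 3.79 ± 0.45 (adjusted p = 0.00455) and Vsir, the VISTA gene, at 2.90 ± 0.73 (adjusted p = 0.00994). Cd101 had at most 1 read in each intracranial-only therapy library, so its fold rests on few reads.

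Of 7 tested costimulatory receptors, which push T cells in the opposite direction, 1 was called higher for therapy with both tumors (1.24% of all genes). This was Tnfrsf18 (GITR), at 2.13 ± 0.51 (adjusted p = 0.0498), with 14, 7 and 23 reads under IgG and 43, 93 and 64 under therapy. Under therapy 6 of the 7 were called higher with both tumors (24.4% of all genes), including Tnfrsf4 (OX40) at 2.71 ± 0.74 (adjusted p = 0.0143) and Cd28 at 4.24 ± 1.23 (adjusted p = 0.0181). The list's median for therapy with both tumors was 2.28. The same median was 2.35 for the 10 genes described here, 2.68 for the 17 T cell identity genes and 0.02 for all genes. The difference between the lists was not tested.

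Signalling genes downstream of the receptors and regulators of exhaustion were less uniform. Dgka, a diacylglycerol kinase that limits T cell receptor signalling, was the 1 of 9 signalling genes called for therapy with both tumors (1.25 ± 0.31, adjusted p = 0.0498). In that comparison 1.24% of all genes were called higher. Under therapy, where 24.4% of all genes were called higher and 21% lower, 4 of the 9 were higher with both tumors, among them Ptpn6, the SHP-1 phosphatase gene, by 1.02 ± 0.30 (adjusted p = 0.0180) and Inpp5d, the SHIP1 gene, by 2.89 ± 0.75 (adjusted p = 0.0113). Of 14 exhaustion regulators, 0 were called for therapy with both tumors by edgeR, where 5.39% of all genes were called in either direction. Under therapy 7 were higher and 1 lower with both tumors. Tox2, a relative of Tox, was at 4.51 ± 0.96 (adjusted p = 0.00543), and Nr4a2 at 1.46 ± 0.29 (adjusted p = 0.00483).

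Markers of other cell types were also higher in the both-tumor therapy libraries, mostly without passing the test. With both tumors, libraries given therapy lay above those given IgG without overlap for 17 of 17 T cell identity genes (0 called), 4 of 6 natural killer cell genes (0 called), 9 of 12 macrophage genes (1 called, Cd68), 6 of 11 microglia genes (2 called), 9 of 10 oligodendrocyte genes (2 called) and 1 of 12 neuron genes (1 called). The same was seen for 2 of 3 tested B cell genes (0 called), 5 of 9 dendritic cell genes (0 called) and 5 of 10 endothelial genes (1 called). Of the endothelial genes, 1 was lower without overlap. Of all genes, 17.9% were higher without overlap and 1.24% were called higher. The summed macrophage level was 79.2 to 206 FPKM in both-tumor IgG and 447 to 581 in both-tumor therapy. In the same order the oligodendrocyte sum was 110 to 438 and 439 to 860, the neuron sum 56.8 to 350 and 278 to 782. The microglia sum was 300.2 to 656 and 552 to 711, but it did not follow most of its genes. In intracranial-only mice 9 of the 11 microglia genes were lower with therapy without overlap. Their sum there was 308 to 546 FPKM under IgG and 357 to 462 under therapy. Which genes set that sum was not tested. Under therapy, both tumors against intracranial only called 14 of 17 T cell genes, 10 of 11 microglia genes, 8 of 12 macrophage genes, 10 of 10 oligodendrocyte genes and 12 of 12 neuron genes higher, against 24.4% of all genes. It also called 1 of 6 natural killer cell genes, 2 of 3 B cell genes, 4 of 9 dendritic cell genes and 6 of 10 endothelial genes higher, and 1 endothelial gene lower. The summed level of 10 melanocyte markers, which stand for the tumor cells, ran from 13545 to 18526 FPKM over the 12 libraries, with 0 of 10 called in each comparison. No marker list other than that of oligodendrocytes had a gene at 0 reads throughout a group. The part of these cells in the values of the 10 genes was not tested.

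**Figure D5:**
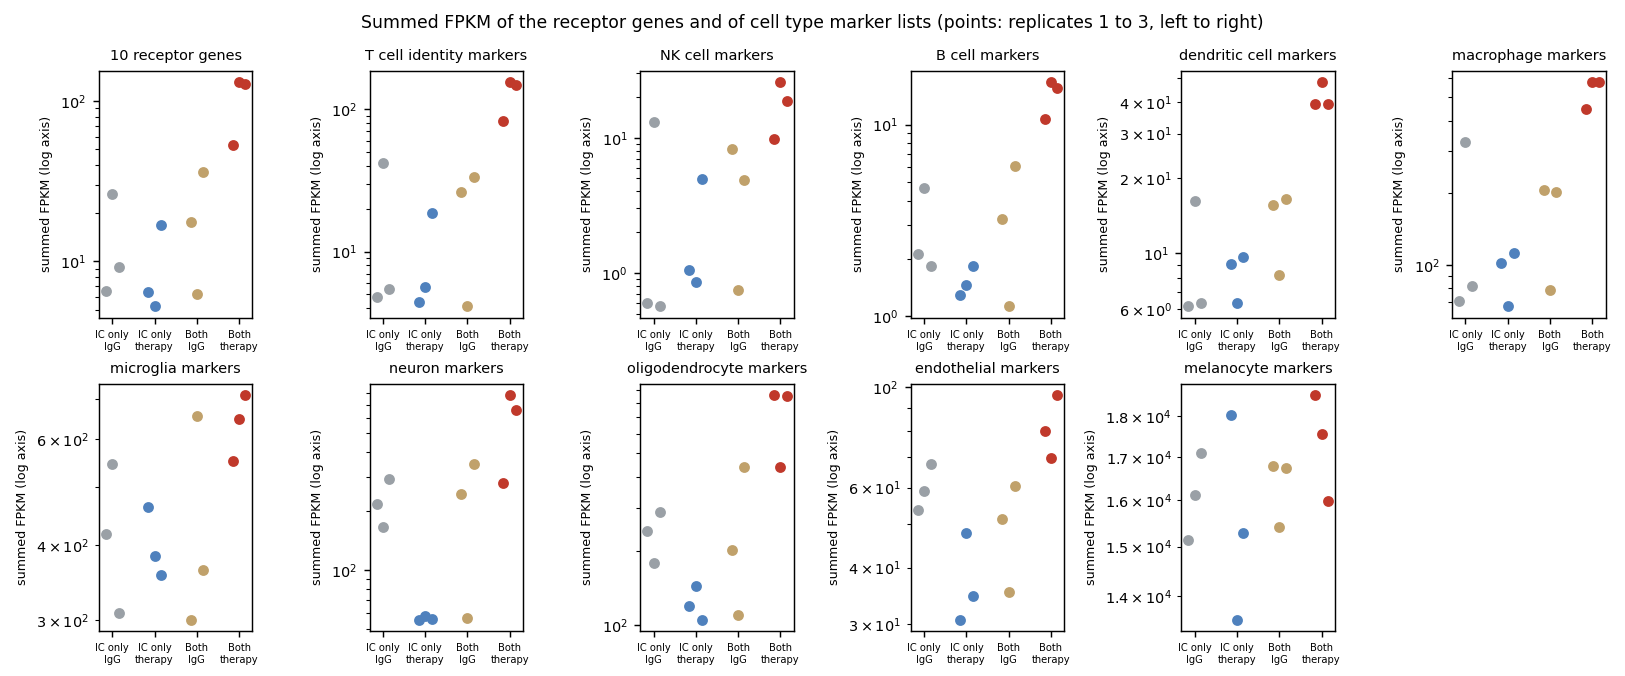
Summed FPKM (log axes, which differ between panels) of the 10 genes and of 10 cell type marker lists in the 12 libraries (1 point per library, replicates 1 to 3 from left to right; IC, intracranial). The summed receptor, T cell, B cell, dendritic cell and macrophage levels are highest in the 3 both-tumor therapy libraries. So are the oligodendrocyte and endothelial levels, by narrow gaps. Melanocyte markers lie between 13545 and 18526 FPKM in every library.

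The genes most like each of the 10 across the 12 libraries were taken by the root mean square difference of centred log2 CPM. For Pdcd1 these were Cd8a (0.37), Cd8b1 (0.38) and Ctla4 (0.39), where Pdcd1 itself varied by 2.39 around its mean. For Ctla4 they were Sh2d2a (0.23), Trbc2 (0.35) and H2-Q7 (0.36), and for Tigit Cd3d (0.43), Cybb (0.45) and Trbc2 (0.45). Lag3 lay nearest to Ly86 (0.43), Ighm (0.46) and Zap70 (0.47). The nearest to Havcr2 were Prr5l (0.26), Rhoh (0.28) and AI467606 (0.35), and to Entpd1 Vav1 (0.29), Cd300c2 (0.30) and Pltp (0.31).

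Cd160 lay nearest to Glipr1 (0.38), Lyz2 (0.38) and Tm6sf1 (0.47), and Btla to Gimap4 (0.50), Hhex (0.50) and Irf9 (0.51). Tox was nearest to Spon1 (0.40), Ipcef1 (0.49) and Adap1 (0.50), none of them a T cell identity gene of the list used here. Layn was nearest to Fam43a (0.25), Itga7 (0.25) and Stard10 (0.27). Chains of CD8 or of the T cell receptor complex were thus among the nearest genes of Pdcd1, Ctla4 and Tigit and of none of the other 7. All of these points share libraries and depth, and the distances are given as a description.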

How the data were processed

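The RNAqueous-Micro kit and NEBNext Ultra reagents were used for RNA and libraries, per the labels' protocols. The submitters' processing notes name TopHat2 2.0.12, Bowtie2 2.2.3, HTSeq 0.6.1 and the builds GRCm38 and mm10, while annotation release and strand setting were not given in the sources used here, which limits overlapping genes. The first deposited table holds raw counts per Ensembl gene. The second holds FPKM values, which the authors computed: for all 16062 genes read in every library, FPKM equalled the count divided by 1 length per gene and by the total count, within a relative tolerance of 1e-06. Of 47069 identifiers, 46488 matched a symbol and 581 did not.

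The test was edgeR 4.0.16 (R 4.3.3), with TMM factors, filterByExpr (minimum count 10, minimum total 15) and 4 group means fitted over 12 libraries. The common dispersion was 0.112 (biological coefficient of variation 33.5%). P-values were adjusted by Benjamini-Hochberg over 15925 genes, with a threshold of 0.05. Standard errors were derived as the size of the log2 fold change over the root of its F statistic. Alternatives were RLE factors, no filter, the 2 groups alone, DESeq2 1.42.0, limma 3.58.1 (voom, and log2 of FPKM plus 1 or 0.1) and each library left out.

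Ratios to Cd3e used reads plus 0.5, with exact two-sided permutation of 20 arrangements, or 400 within strata (smallest p 0.005). Alternatives were 1 read added, Cd3d, Cd3e and Cd3g summed, and Cd8a as denominator. The members, gene lists and tests were chosen with earlier results of these data known. From 16 lists with 170 genes (168 in the tables; Pvrig and Lilrb4a were not matched), up to 3 genes per comparison with the smallest p past the threshold could be named, beside the 10 genes, Cd3e and 10 ligands, and for each of the 10 the 3 nearest genes with a mean of at least 1 CPM (log2, prior count 2).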

Additional observations from a re-analysis of the deposited data

Results flagged for a closer look

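The therapy effect on Layn differed between the 2 tumor states by the test of the difference itself, 2.57 ± 0.48 on the log2 scale (edgeR's quasi-likelihood test, adjusted p = 0.0321). Of all genes, 12.1% were called higher in that test. So were 12 of 12 neuron, 9 of 10 oligodendrocyte, 8 of 11 microglia and 1 of 17 T cell identity genes, and the part of these cells was not tested. The therapy effect on Layn was 1.47 ± 0.33 with both tumors (adjusted p = 0.0498) and -1.10 ± 0.34 with the intracranial tumor alone (adjusted p = 0.163). In each state the 3 therapy libraries did not overlap with the 3 IgG libraries. Of all genes, 17.9% were higher without overlap with both tumors, and 14.4% were lower without overlap with the intracranial tumor alone. Over the 18 alternatives the adjusted p was 0.00074 to 0.0669, and 10 of them passed.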

How the results depend on the processing

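Low read numbers in several libraries limit Ctla4, Tigit, Cd160 and Btla, and fitted folds against groups left with 0 reads depend on the prior count and are no bounds. Of the fitted values and ratios of single genes under alternatives, 962 kept their direction and side of the threshold, 39 turned, 39 passed only in the alternative and 43 passed only in the main fit. For the ratios among them only the direction was compared, so they could not change side of a threshold. The cause of each change below was not tested. No paired analysis was made, since the labels name no pairs of libraries across the groups.

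For therapy with both tumors edgeR called 858 genes, 198 higher, and 1 of the 10. RLE factors, no filter and the 2 groups alone each called 0 genes and 0 of the 10. DESeq2 called 3139 genes (1368 higher) and 4, limma-voom 1695 (651 higher) and 5, FPKM plus 1 2630 (1211 higher) and 7, and FPKM plus 0.1 1759 (544 higher) and 3. Leaving out 1 library gave 0 to 2394 genes and 0 to 3 of the 10. In intracranial-only mice the 2 groups alone gave 839 genes, with 4 of the 10 tested, DESeq2 1038, and leaving out 1 library 0 to 1002. For both tumors against intracranial only under therapy, leaving out 1 library gave 4710 to 8128 genes (7231 in the main fit) and 4 to 10 of the 10. The interaction gave 3505 genes (1924 higher) and 1 of the 10, and 1584 (598 higher) and 1 with voom. DESeq2 gave 4784 genes (2732 higher) and 4 of the 10. FPKM plus 1 gave 3118 (1872 higher) and 6, and FPKM plus 0.1 gave 3327 (2025 higher) and 3. With 1 library left out the interaction gave 0 to 4367 genes and 0 to 4 of the 10. Relative to Cd3e within strata, therapy gave 0 of the 10, 2 with summed CD3 chains and 0 to 6 with 1 library left out. The extracranial tumor gave 5, 2 with summed CD3 chains, 2 with Cd8a and 0 to 8 with 1 library left out. Shares over all genes were not computed for these alternatives of the ratio.

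Directions turned for Ctla4 with therapy in intracranial-only mice in voom (0.067), and, for the extracranial tumor under IgG, for Havcr2 in voom (-0.21), FPKM plus 1 (-0.026) and FPKM plus 0.1 (-0.16) and for Tox in voom (-0.24). Relative to Cd8a in place of Cd3e, the therapy differences with both tumors turned for Pdcd1 (-0.61), Ctla4 (-0.26) and Tigit (-0.014).

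With 1 library left out, therapy in intracranial-only mice gave -2.78 to 2.18 for Pdcd1, -3.80 to 4.78 for Ctla4, -0.82 to 0.14 for Havcr2, -1.0 to 5.89 for Tigit, -0.051 to 1.67 for Btla, -1.94 to 0.74 for Cd160 and -1.04 to 0.52 for Entpd1. The extracranial tumor under IgG gave -0.13 to 3.91 for Pdcd1, -0.051 to 6.95 for Ctla4, -0.82 to 0.50 for Havcr2, -0.066 to 6.31 for Tigit, -0.15 to 2.53 for Cd160 and -0.34 to 1.23 for Entpd1. The interaction gave -2.10 to 6.47 for Ctla4, -2.78 to 4.10 for Tigit and -0.95 to 0.76 for Btla. Ratios to Cd3e for therapy with both tumors gave -0.042 to 0.53 for Pdcd1, -0.23 to 1.15 for Ctla4 and -1.20 to 0.63 for Tox.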
